A study of Mus musculus with 32 samples.

Results

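The genes described here are 10 members of the ATF4 stress response, measured by RNA sequencing in mouse cardiac fibroblasts, the matrix-producing cells of the heart. They were chosen by name: Atf4, Atf5, Atf3 and Ddit3 encode transcription factors, Ddit4, Trib3, Chac1 and Sesn2 encode feedback and effector proteins, and Slc7a5 and Slc3a2 encode an amino acid transporter. Their Ensembl identifiers were matched to GENCODE symbols of GRCm38, and all 10 were found among 55414 identifiers and passed the filter on low counts that left 16760 genes for testing. The cells were C57BL/6J Pkm2fl/fl by their genotype label, which all groups share, at passage 1, after growth in medium with serum and bFGF (basic fibroblast growth factor). The growth and treatment text of the labels names TAK1fl/fl mice instead, and a TNFa arm that is not among the groups here. The floxed gene therefore rests on the genotype label, and the doses and the time below rest on a text that does not match these groups in full. The cells received iCre (Cre recombinase) or LacZ (beta-galactosidase, the control vector) and then, without serum, TGFb (transforming growth factor beta) at 10 ng/ml, IL-1b (interleukin 1 beta) at 15 ng/ml or bFGF at 20 ng/ml for 24 h, or the condition labelled SS, which the labels tag as control and do not spell out. Each of the 8 groups of vector and condition held 4 libraries, numbered 1 to 4. The groups were taken from the titles, since the treatment tags of the LacZ libraries do not match theirs. No source used here gives the age of the mice, the delivery of the vectors or whether numbers stand for separate animals, so p-values measure the spread between these libraries only.

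ATF4 is a basic leucine zipper factor whose messenger RNA is translated efficiently when eIF2 kinases sense misfolded protein, missing amino acids, viral RNA or lack of heme and phosphorylate eIF2. It then raises genes for amino acid synthesis and uptake, for tRNA charging and for feedback on the same pathway. In fibroblasts this programme is known to supply glycine and proline for collagen synthesis. Because ATF4 protein is set largely by translation, messenger RNA levels do not report its activity directly.

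ATF4 dimers bind the C/EBP-ATF response element, written TGATGNAA, in which N is any base. RefSeq promoters of GRCm38.p6, from 250 bases before to 50 bases after the start of transcription, were searched for it on both strands, together with the related TGACGCAA. Of the 10 members 9 had a promoter, and TGATGNAA was found in 3 of them (Atf3, Chac1 and Trib3), against 3.97% of 32851 promoters. TGACGCAA was found in Chac1 alone among the members, against 0.49% of all promoters. Of 5 known targets searched in the same way, Asns and Slc7a11 had a match, and Cebpb, Ppp1r15a and Psat1 had none. The matches of the members and of these targets are shown so that the elements can be compared. Each is 30 bases on the strand of the gene, with the match in capitals and the distance of its first base from the start:
Chac1 TGATGNAA, reverse complement, -193, chr2:119351038-119351067, plus strand: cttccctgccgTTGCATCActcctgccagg
Chac1 TGACGCAA, -250, chr2:119350992-119351021, plus strand: TGACGCAAtctgactcgcccttgctgcatg
Atf3 TGATGNAA, reverse complement, -110, chr1:191183425-191183454, minus strand: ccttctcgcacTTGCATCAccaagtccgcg
Trib3 TGATGNAA, reverse complement, 15, chr2:152344028-152344057, minus strand: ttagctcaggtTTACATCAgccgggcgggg
Asns TGATGNAA, -23, chr6:7693214-7693243, minus strand: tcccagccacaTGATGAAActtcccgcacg
Slc7a11 TGATGNAA, -66, chr3:50443661-50443690, minus strand: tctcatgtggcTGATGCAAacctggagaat
Slc7a11 TGATGNAA, reverse complement, -47, chr3:50443642-50443671, minus strand: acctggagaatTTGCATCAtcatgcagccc
No match lay within these windows for Atf4, Atf5, Ddit3, Ddit4, Sesn2 and Slc3a2, which says only that these letters are not there. The promoter of Slc7a5 was not searched.

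Chac1 had the highest fold change of the members under TGFb and holds both elements, so 250 bases of its promoter are shown whole, with both matches in capitals, from chr2:119350992-119351241 on the plus strand:
Chac1: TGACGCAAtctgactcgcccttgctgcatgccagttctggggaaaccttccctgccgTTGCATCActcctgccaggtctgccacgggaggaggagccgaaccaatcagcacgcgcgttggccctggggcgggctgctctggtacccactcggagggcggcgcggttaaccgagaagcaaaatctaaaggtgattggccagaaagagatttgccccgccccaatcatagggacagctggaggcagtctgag

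The libraries held 20736203 to 34995038 counts, and the iCre library was the deeper of its pair in 16 of 16 pairs. Pkm, the gene named by the genotype label, was lower in iCre than in LacZ in 4 of 4 pairs of each condition, by 0.21 to 0.79 on the log2 scale of CPM (counts scaled to a common library size). Its average difference of -0.50 ± 0.11 did not pass edgeR's quasi-likelihood test (adjusted p = 0.0745), and its counts cover the whole gene, not the floxed part alone. The stimuli showed in genes known to answer them: Nos2 changed by 9.03 with IL-1b in iCre and 9.19 in LacZ on the log2 scale, Spry4 by 2.54 and 2.99 with bFGF, and Pmepa1 by 2.36 and 2.53 with TGFb. The summed level of 9 fibroblast markers was 20780 to 56020 CPM in the number 4 libraries and 37010 to 66310 CPM in the others. Of the cardiomyocyte markers, Nppa was at 0 in 6 groups, and the whole list of 8 summed to 4.18 to 126.9 CPM. The number 4 libraries stood apart. Across the 6 groups without TGFb, number 4 had the lowest level of its group in 54 of 60 sets of member and group, with a median of 0.559 times the mean of numbers 1 to 3. In the TGFb groups it was lowest in 9 of 20 sets, with a median of 0.866. The members varied together within groups (r from 0.273 to 0.987 over 45 pairs of members), so these sets are not separate observations. How often number 4 was lowest among all tested genes was not counted. The 12 leukocyte markers summed to 38.2 to 115.9 CPM in number 4, against 73.9 to 197 CPM in number 2, 201 to 467 CPM in number 1 and 384 to 1034 CPM in number 3. The 4 Schwann cell markers summed to 3.12 to 5.53 CPM in number 4, against 6.295 to 14.1 CPM in the others. The part of these markers in the members' levels was not tested, and in bulk RNA fewer cells of a type and less RNA per cell cannot be told apart.

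**Figure D1:**
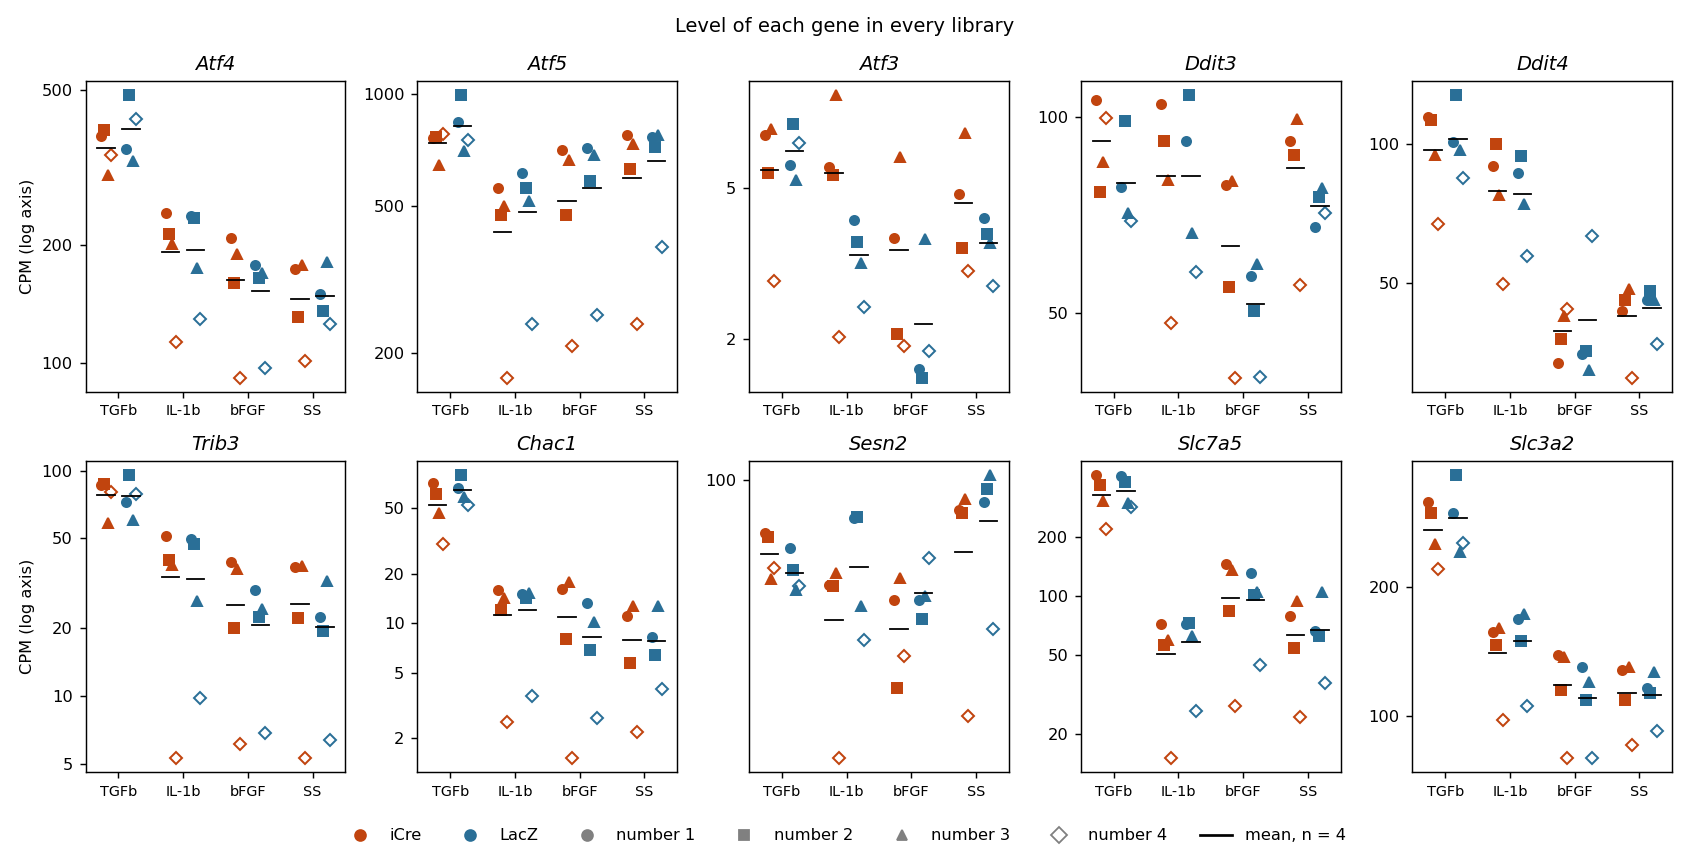
CPM of each of the 10 genes in all 32 libraries, on log axes, by stimulus and vector; horizontal lines are means of 4 libraries and symbols give the library number. For Atf4, Ddit4, Trib3, Chac1, Slc7a5 and Slc3a2 every TGFb library lies above every SS library of the same vector. The share of all tested genes that separate in this way is not given here. Open diamonds (number 4) are the lowest of their group in 54 of 60 sets outside TGFb, but the highest for Ddit4 in both bFGF groups and for Sesn2 in LacZ bFGF.

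Per kilobase of exons, Atf5 had the highest level of the 10 genes, with group means from 213 to 413 CPM per kb, and Atf4 followed with 62.0 to 168 CPM per kb. Atf3 had the lowest, 1.02 to 2.90 CPM per kb, and its counts were as low as 38 in a library. Slc7a5 spanned 13.7 to 92.1 CPM per kb, Slc3a2 31.1 to 81.9, Ddit4 22.4 to 58.5, Ddit3 30.1 to 53.7, Chac1 4.78 to 39.2 and Trib3 9.49 to 36.8 CPM per kb. Sesn2 moved least, with group means from 21.9 to 26.7 CPM per kb. The transcription factors thus covered both ends of the range. By group, Atf4 averaged 355 ± 41.7 CPM in iCre and 397 ± 70.3 CPM in LacZ with TGFb, and in the other 6 groups its means ran from 146 to 194 CPM with SDs of 24.3 to 55.8. These SDs include the low number 4 libraries.

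TGFb was set against SS to see how the ATF4 genes answer this fibrogenic stimulus. Atf4, Ddit4, Trib3, Chac1, Slc7a5 and Slc3a2 rose in iCre and in LacZ fibroblasts, from 2.30-fold for Ddit4 in iCre to 8.19-fold for Chac1 in LacZ, and no member fell. Atf5, Atf3, Ddit3 and Sesn2 did not pass the test in either vector. Thus 6 of 10 members rose in each vector, where 20.2% of all tested genes rose and 18.1% fell in iCre, and 23.4% rose and 22.9% fell in LacZ. The median log2 fold change of the 10 members was 1.23 in iCre and 1.29 in LacZ, against -0.05 and -0.06 over all tested genes. All adjusted p-values come from edgeR's quasi-likelihood test with Benjamini-Hochberg adjustment over 16760 genes. Fold changes are given with their standard error (SE).

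Atf4 (ENSMUSG00000042406, chr15:80255184-80257541, plus strand) is the central factor. It had 382, 395, 303 and 340.0 CPM in the iCre TGFb libraries, numbers 1 to 4, against 174, 131.5, 178 and 101.5 CPM in the iCre SS libraries. In LacZ it had 353, 484, 329 and 421 CPM with TGFb, against 150.2, 136, 181 and 126 CPM with SS. The groups did not overlap in either vector, and the difference had the same direction in 4 of 4 numbers. For this and the later statements on overlap, the share of all tested genes that separate likewise is not given. The log2 fold change was 1.28 ± 0.25 in iCre (adjusted p = 0.00026) and 1.42 ± 0.26 in LacZ (adjusted p = 5.7e-05).

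The other 3 transcription factors did not pass, and their difference from Atf4 was not tested. Atf5 (ENSMUSG00000038539, chr7:44812256-44816658, minus strand), a relative of ATF4 that is also controlled by translation, averaged 740 ± 63.7 CPM with TGFb and 595 ± 245 CPM with SS in iCre (SD, n = 4 each). In LacZ it averaged 823 ± 129 CPM with TGFb and 662 ± 186 CPM with SS. Its libraries overlapped, and its log2 fold change was 0.31 ± 0.39 in each vector (adjusted p = 0.56 in iCre and 0.53 in LacZ). Number 4 alone gave differences of 1.71 in iCre and 0.96 in LacZ, against -0.19 to 0.47 in the other numbers. The gene overlaps Nup62 and Il4i1 on the opposite strand, and whether counting used strand is not given in the sources used here.

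Atf3 (ENSMUSG00000026628, chr1:191170296-191218039, minus strand), a repressor of stress genes in many settings, had 6.90, 5.47, 7.16 and 2.84 CPM with TGFb in iCre, against 4.82, 3.47, 6.99 and 3.02 CPM with SS. LacZ libraries had 5.75, 7.38, 5.26 and 6.56 CPM with TGFb, against 4.17, 3.79, 3.58 and 2.77 CPM with SS. The LacZ groups did not overlap and the iCre groups did. Its log2 fold change was 0.29 ± 0.38 in iCre (adjusted p = 0.58) and 0.80 ± 0.39 in LacZ (adjusted p = 0.0903). With the library number as a block, the LacZ value was 0.86 ± 0.28 and passed (adjusted p = 0.0111), which makes 7 of 10 members in LacZ and 6 of 10 in iCre, where 28.1% and 25.1% of all genes rose.

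Ddit3 (ENSMUSG00000025408, chr10:127290774-127296288, plus strand) encodes CHOP, which is linked to cell death under prolonged endoplasmic reticulum (ER) stress. It averaged 91.9 ± 13.4 CPM with TGFb and 83.4 ± 19.3 CPM with SS in iCre (SD, n = 4 each). In LacZ it averaged 79.3 ± 13.4 CPM with TGFb and 73.0 ± 4.40 CPM with SS. The ranges overlapped, and the log2 fold changes were 0.14 ± 0.23 in iCre (adjusted p = 0.66) and 0.12 ± 0.23 in LacZ (adjusted p = 0.70). An interval of 2 standard errors on either side ran from -0.32 to 0.60 in iCre and from -0.34 to 0.58 in LacZ. The end of Ddit3 overlaps that of Mars, a tRNA synthetase gene that rose with TGFb, on the opposite strand. The overlap runs only from base 127296221 to base 127296288 of chr10, and its part in the counts was not tested. Under scaling to total counts alone its values turned to -0.06 in iCre and -0.08 in LacZ, and without the number 4 libraries the iCre value was -0.05, again not passed.

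Among the feedback genes, Chac1 (ENSMUSG00000027313, chr2:119351229-119354381, plus strand) encodes an enzyme that degrades glutathione. It had 71.1, 60.6, 46.9 and 30.4 CPM with TGFb in iCre, against 11.1, 5.75, 12.7 and 2.18 CPM with SS. In the LacZ cells it had 66.6, 79.1, 58.6 and 52.3 CPM with TGFb, against 8.25, 6.37, 12.7 and 3.99 CPM with SS. Every TGFb library exceeded every SS library of its vector. On the log2 scale the change was 2.73 ± 0.65 in iCre (adjusted p = 0.0016) and 3.03 ± 0.66 in LacZ (adjusted p = 0.00046), and within the numbers it ran from 1.88 to 3.76.

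Trib3 (ENSMUSG00000032715, chr2:152337422-152344032, minus strand) encodes a pseudokinase that binds ATF4 and restrains it. It had 86.5, 87.1, 58.5 and 80.7 CPM with TGFb in iCre, against 37.2, 22.2, 37.9 and 5.31 CPM with SS. In LacZ it had 72.9, 95.3, 60.6 and 78.7 CPM with TGFb, against 22.5, 19.4, 32.5 and 6.36 CPM with SS. The TGFb libraries lay close together and above all SS libraries, among which number 4 was low. The fitted log2 change was 1.61 ± 0.63 in iCre (adjusted p = 0.046) and 1.93 ± 0.64 in LacZ (adjusted p = 0.015). Within the numbers it was 3.91 in iCre and 3.61 in LacZ for number 4, against 0.63 to 2.29 for the others, and without all number 4 libraries it was 1.26 ± 0.29 in iCre (adjusted p = 0.0016) and 1.64 ± 0.30 in LacZ (adjusted p = 0.00015). The iCre call was lost without any 1 of 21 of the 32 libraries (adjusted p from 0.026 to 0.12 over the 32): any TGFb library of either vector, iCre IL-1b numbers 1, 2 and 3, iCre bFGF numbers 2 and 3, iCre SS numbers 2 and 4, LacZ IL-1b numbers 2 and 3, LacZ bFGF numbers 2 and 3, and LacZ SS numbers 1 and 2. The LacZ call was lost only without LacZ SS number 4, at an adjusted p of 0.052.

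Ddit4 (ENSMUSG00000020108, chr10:59949669-59951834, minus strand) encodes REDD1, which inhibits the growth kinase complex mTORC1. It had 115, 113, 94.9 and 67.2 CPM with TGFb in iCre, against 43.4, 46.0, 48.6 and 31.1 CPM with SS. LacZ libraries had 101, 128, 96.99 and 84.3 CPM with TGFb, against 45.9, 48.0, 45.8 and 36.8 CPM with SS. The groups did not overlap, and the 4 numbers differed little in their response, from 0.97 to 1.41. The log2 fold change was 1.20 ± 0.22 in iCre (adjusted p = 0.00011) and 1.22 ± 0.22 in LacZ (adjusted p = 6.4e-05).

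Sesn2 (ENSMUSG00000028893, chr4:132492032-132510501, minus strand), a leucine sensor that also restrains mTORC1, averaged 87.3 ± 3.61 CPM with TGFb and 87.6 ± 15.1 CPM with SS in iCre (SD, n = 4 each). In LacZ it averaged 84.3 ± 2.99 CPM with TGFb and 92.8 ± 11.3 CPM with SS. Its log2 fold change was -0.00 ± 0.11 in iCre (adjusted p = 0.98) and -0.14 ± 0.11 in LacZ (adjusted p = 0.33), and the groups overlapped. In LacZ it passed as lower at -0.19 ± 0.07 without the number 4 libraries (adjusted p = 0.031) and at -0.33 ± 0.09 with scaling to total counts alone (adjusted p = 0.0049).

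Both genes of the transporter pair rose with TGFb. Slc7a5 (ENSMUSG00000040010, chr8:121881150-121907694, minus strand) encodes LAT1, which imports leucine and other large neutral amino acids. It had 410.3, 368, 303 and 219 CPM with TGFb in iCre, against 79.5, 54.2, 94.3 and 24.2 CPM with SS. In the LacZ cells it had 406, 379.8, 296 and 285 CPM with TGFb, against 66.6, 62.4, 105 and 36.3 CPM with SS. The lowest TGFb library lay above the highest SS library by more than 100 CPM in both vectors. On the log2 scale the change was 2.37 ± 0.50 in iCre (adjusted p = 0.00047) and 2.34 ± 0.50 in LacZ (adjusted p = 0.00038).

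Slc3a2 (ENSMUSG00000010095, chr19:8706882-8723369, minus strand) encodes the CD98 heavy chain that carries LAT1 to the membrane. It had 316, 297, 252 and 220.4 CPM with TGFb in iCre, against 128, 109, 130.3 and 85.5 CPM with SS. In LacZ it had 297, 364, 241 and 254 CPM with TGFb, against 116, 113, 126 and 92.2 CPM with SS. The groups did not overlap. The fitted log2 change was 1.26 ± 0.20 in iCre (adjusted p = 1.99e-05) and 1.37 ± 0.20 in LacZ (adjusted p = 4.2e-06), the smallest p-values of the 10 members.

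**Figure D2:**
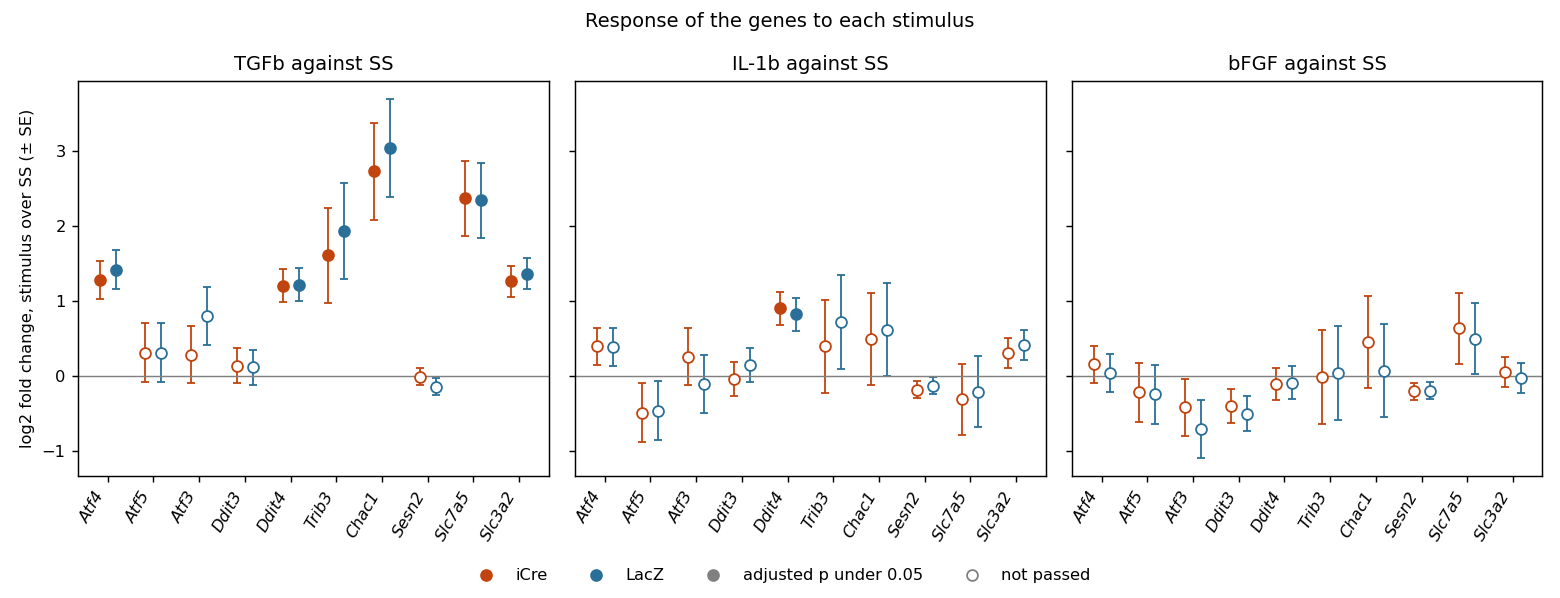
Log2 fold change of each gene for each stimulus over SS, in iCre and LacZ fibroblasts; bars are ± 1 SE of the edgeR fit and filled points have an adjusted p under 0.05. Filled points stand at 6 genes for TGFb, at Ddit4 for IL-1b and at none for bFGF.

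Known targets of ATF4 outside the 10 genes were followed in lists by role. Of 12 genes of amino acid and one-carbon synthesis, 12 rose with TGFb in each vector, with a median log2 fold change of 2.05 in iCre and 2.07 in LacZ. Cth, which makes cysteine, changed by 3.47 in iCre and 4.34 in LacZ, and Psph, the last enzyme of serine synthesis, by 2.27 and 2.46. Pycr1 and Aldh18a1, which make proline, changed by 2.06 and 1.68 in iCre and by 1.96 and 1.62 in LacZ. Asns, which makes asparagine, changed by 2.04 in iCre and 2.24 in LacZ. Thus every gene of this list passed in both vectors.

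The 13 genes of tRNA charging and export all rose in each vector, with medians of 1.21 in iCre and 1.28 in LacZ. Tars, the threonine enzyme, changed by 1.63 in iCre and 1.78 in LacZ, and Gars, the glycine enzyme, by 1.49 and 1.64. Of 8 amino acid transporters 5 rose in iCre and 6 in LacZ, with medians of 1.22 and 1.31. Slc7a11, the cystine importer, changed by 2.12 in iCre and 2.32 in LacZ, and Slc7a1, which carries arginine, by 1.82 and 1.84. Of 12 further stress targets 5 rose in iCre and 8 in LacZ, and none fell. Fgf21, a secreted stress hormone, had 15.4, 14.4, 13.6 and 3.15 CPM with TGFb in iCre, against 0, 0.187, 0.333 and 0.112 CPM with SS. LacZ libraries had 15.3, 20.2, 13.6 and 14.6 CPM with TGFb, against 0.174, 0.187, 0.124 and 0 CPM with SS. It was thus near 0 in all SS libraries, and its log2 fold change was 6.16 in iCre and 7.04 in LacZ. Nupr1, a small stress-induced chromatin protein, changed by 2.79 in iCre and 3.04 in LacZ. Adjusted p-values of the genes named in this and the preceding paragraph lay at or below 0.00724 in both vectors.

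The machinery around ATF4 moved as well. The list for eIF2, its kinases and its phosphatases also held Eif2b5 and Impact. Of its 10 genes 6 rose with TGFb in each vector and none fell, with medians of 0.38 in iCre and 0.47 in LacZ. Eif2s1, the phosphorylated subunit itself, changed by 0.99 in iCre and 1.16 in LacZ (adjusted p = 4.9e-06 and 2.8e-07). Ppp1r15a, the inducible phosphatase subunit GADD34, changed by 0.93 and 1.09 (adjusted p = 9.7e-05 and 9.1e-06). Eif2ak3, the ER stress kinase PERK, changed by 0.34 and 0.47 (adjusted p = 0.028 and 0.0023). In this list the kinase sensing ER stress passed, and the other 3 kinases did not. Of 14 ER chaperone and unfolded protein genes, 13 rose in iCre and 14 in LacZ, with medians of 0.98 and 1.06. Manf, a secreted ER stress factor, changed by 1.54 in iCre and 1.74 in LacZ, and Hspa5, the chaperone BiP, by 1.36 and 1.53.

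The regulators of mTORC1 and the relatives of the members are read against the shares of all genes, 20.2% risen and 18.1% fallen in iCre and 23.4% and 22.9% in LacZ. Of 13 mTORC1 regulators, 2 rose and 5 fell in iCre, and 1 rose and 6 fell in LacZ, with medians of -0.17 and -0.16. Deptor, an mTORC1 inhibitor, changed by -1.37 in iCre and -2.09 in LacZ (adjusted p = 0.0034 and 4.4e-05). Rragd, a Rag GTPase that brings mTORC1 to lysosomes, changed by -1.72 and -1.90 (adjusted p = 0.00011 and 2.6e-05). Of 7 paralogs of the members, 0 rose and 2 fell in iCre, and 2 rose and 3 fell in LacZ. Sesn1 changed by -1.46 in iCre and -1.73 in LacZ (adjusted p = 2.2e-05 and 1.5e-06), and Ddit4l by -0.99 and -1.18 (adjusted p = 0.0026 and 0.00037). With 7 paralogs, 2 fallen in iCre is near the share of all genes. Among 7 tested genes of CD98 light chains and large neutral amino acid carriers, 4 rose and 1 fell in each vector. The risen genes include the member Slc7a5 and also Slc7a11, which was counted above among the transporters. Slc7a6, another partner of Slc3a2, changed by 1.14 in iCre and 1.22 in LacZ, while Slc43a2, which carries leucine without it, changed by -1.29 and -1.48. Of 16 other leucine zipper factors 3 rose and 2 fell in iCre, and 7 rose and 3 fell in LacZ, so the iCre counts lie no higher than those shares. Junb, an AP-1 subunit, changed by 1.42 in iCre and 1.74 in LacZ (adjusted p = 1.61e-06 and 4.83e-08).

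**Figure D3:**
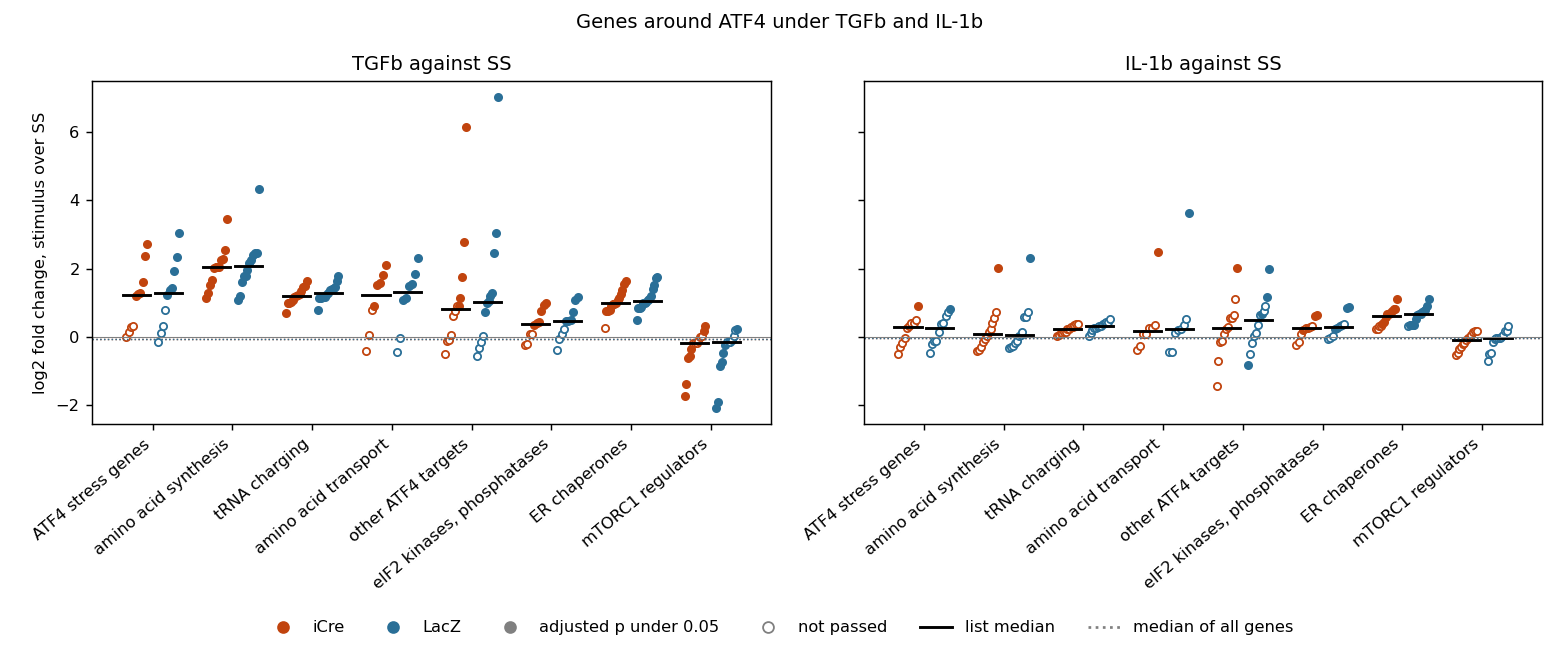
Log2 fold change over SS of every tested gene in the lists around ATF4, for TGFb and IL-1b, in iCre and LacZ; filled points have an adjusted p under 0.05, lines are list medians and the dotted lines are medians of all genes. With TGFb all genes of amino acid synthesis and tRNA charging are filled and above 0; with IL-1b most of them are open and near 0, while the ER chaperones are mostly filled.

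Markers of other cells differed between the same groups. The 8 cardiomyocyte markers summed to 7.999 to 9.69 CPM with TGFb in iCre, against 22.4 to 91.4 CPM with SS, and to 9.51 to 36.7 CPM in LacZ with TGFb, against 44.7 to 126.9 CPM with SS. Most of the sum with SS was Tnnt2, whose means over the 8 groups ran from 2.6 to 78.1 CPM. Tnni3 had group means of 1.08 to 1.73 CPM, and each other cardiomyocyte marker had at most 0.203 CPM. The 8 endothelial markers summed to 6.48 to 8.47 CPM with TGFb in iCre, against 16.8 to 23.1 CPM with SS, and to 5.94 to 10.8 CPM in LacZ with TGFb, against 17.3 to 34.6 CPM with SS. Most of this sum with SS was Tek, whose means over the 8 groups ran from 4.56 to 24.1 CPM. No other endothelial marker had a group mean above the 2.54 CPM of Cdh5. The cardiomyocyte marker Pln was at 0 in both TGFb groups, while Nppa was at 0 in both SS groups and not with TGFb. The endothelial marker Cldn5 was at 0 in both TGFb groups and also in LacZ SS. Leukocyte sums overlapped between the groups, at 38.2 to 540 CPM with TGFb in iCre, against 67.95 to 738 CPM with SS, and 42.5 to 384 CPM in LacZ with TGFb, against 76.95 to 583 CPM with SS. The part of these markers in the results was not tested.

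With scaling to total counts alone, the median of all genes shifted to -0.27 in iCre and -0.26 in LacZ, and 29.3% of the called genes rose in iCre and 33.5% in LacZ, against 52.6% and 50.6% with TMM factors. For IL-1b 46.9% of the called genes rose in iCre and 45.8% in LacZ with total counts alone, against 56.5% and 57.6%. Under total counts 5 of these 6 members were called with TGFb in iCre and 6 of 6 in LacZ. Trib3 in iCre was at 1.43 ± 0.59 (adjusted p = 0.055).

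With IL-1b, an inflammatory cytokine, Ddit4 alone of the 10 members rose, in both vectors, and none fell. It had 89.6, 99.9, 77.5 and 49.7 CPM with IL-1b in iCre, against 43.4, 46.0, 48.6 and 31.1 CPM with SS. In the LacZ cells it had 86.5, 94.3, 74.0 and 57.3 CPM with IL-1b, against 45.9, 48.0, 45.8 and 36.8 CPM with SS. The groups did not overlap. The log2 fold change was 0.91 ± 0.22 in iCre (adjusted p = 0.0051) and 0.82 ± 0.22 in LacZ (adjusted p = 0.0084). Of all genes tested, 8.88% rose and 6.84% fell in iCre, and 11.1% rose and 8.13% fell in LacZ, so 1 of 10 members is near the background. The TGFb, IL-1b and bFGF comparisons share their SS libraries.

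Atf4 with IL-1b averaged 193 ± 55.8 CPM in iCre and 194 ± 52.0 CPM in LacZ (SD, n = 4 each), with log2 fold changes over SS of 0.40 ± 0.25 and 0.39 ± 0.25 (adjusted p = 0.31 in each). Slc7a5 had 72.4, 56.7, 59.5 and 15.1 CPM with IL-1b in iCre, against 79.5, 54.2, 94.3 and 24.2 CPM with SS. Its log2 fold change was -0.31 ± 0.47 in iCre and -0.21 ± 0.47 in LacZ (adjusted p = 0.73 and 0.82), and the groups overlapped. Chac1 was at 0.50 ± 0.62 in iCre and 0.62 ± 0.62 in LacZ (adjusted p = 0.66 and 0.54), and Trib3 at 0.40 ± 0.62 and 0.72 ± 0.63 (adjusted p = 0.74 and 0.48). None of these passed. The cardiomyocyte markers summed to 4.18 to 5.91 CPM with IL-1b in iCre, against 22.4 to 91.4 CPM with SS, and to 4.53 to 7.51 CPM in LacZ, against 44.7 to 126.9 CPM with SS. The endothelial markers summed to 6.51 to 13.6 CPM with IL-1b in iCre, against 16.8 to 23.1 CPM with SS, and to 10.8 to 14.95 CPM in LacZ, against 17.3 to 34.6 CPM with SS. The 5 mesothelial markers summed to 3.21 to 5.41 CPM with IL-1b in iCre, against 7.07 to 12.99 CPM with SS, and to 4.19 to 7.24 CPM in LacZ, against 9.56 to 15.8 CPM with SS. None of these sums overlapped with SS. Tnnt2 and Tek again made up most of the cardiomyocyte and endothelial sums with SS. The part of these sums in the IL-1b results was not tested.

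Other fits gave other counts. With the library number as a block, Slc3a2 rose too, by 0.31 ± 0.11 in iCre (adjusted p = 0.032) and 0.40 ± 0.11 in LacZ (adjusted p = 0.0055). That makes 2 of 10 members in each vector, where 15% of all genes rose in iCre and 16.8% in LacZ. Without the number 4 libraries 4 of 10 passed in each vector, where 25.9% of 16506 genes changed in iCre and 29.5% in LacZ. Atf4 then rose by 0.46 ± 0.16 in iCre (adjusted p = 0.045) and 0.48 ± 0.16 in LacZ (adjusted p = 0.033), Slc3a2 rose and Atf5 fell by 0.47 ± 0.14 in iCre (adjusted p = 0.020) and by 0.42 ± 0.14 in LacZ (adjusted p = 0.036). Atf5 was lower with IL-1b than with SS in 4 of 4 numbers of each vector.

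The lists around ATF4 were read under IL-1b as well, and differences between lists were not tested. None of 13 tRNA charging genes passed in either vector by edgeR, with medians of 0.23 in iCre and 0.31 in LacZ. At an unadjusted p under 0.05 there were 0 in iCre and 1 in LacZ, and DESeq2 called 0 as well, with 0 in iCre and 2 in LacZ at that level. Of the 12 amino acid synthesis genes Cth alone rose, by 2.03 in iCre and 2.32 in LacZ (adjusted p = 0.00077 and 0.00019). Of the 8 transporters Slc7a11 alone rose, by 2.48 and 3.64 (adjusted p = 0.00631 and 0.000204). Both are genes of cysteine supply. Of 14 ER chaperone genes 10 rose in iCre and 12 in LacZ, with medians of 0.62 and 0.66. Hspa5 changed by 0.67 in iCre and 0.73 in LacZ (adjusted p = 0.012 and 0.0052). Of the 10 genes of the eIF2 list, which includes Eif2b5 and Impact, 4 rose in each vector. Among them was Eif2ak2, the kinase PKR that senses viral RNA, by 0.61 and 0.84 (adjusted p = 0.012 and 0.00066). Cebpb, a leucine zipper partner of ATF4, rose by 2.02 and 1.99 (adjusted p = 9.8e-06 and 9.03e-06). With the library number as a block, 2 of 13 tRNA charging genes in iCre and 7 in LacZ passed, and without the number 4 libraries 2 and 5 did. Of all genes 15% rose in iCre and 16.8% in LacZ with that block. Without number 4, 25.9% changed in iCre and 29.5% in LacZ. The iCre counts of this list thus lie near or below those shares.

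With bFGF, a growth factor also present in the culture medium, no member passed in either vector by edgeR or DESeq2. Without a block, Ddit3 in LacZ was the 1 member with an unadjusted p under 0.05 in either tool, and iCre had 0. With the library number as a block in edgeR, Ddit3 and Slc7a5 in iCre and Ddit3 and Atf3 in LacZ were under 0.05 unadjusted, and none passed after adjustment. Of all genes 1.44% rose and 0.752% fell in iCre, and 1.64% rose and 0.919% fell in LacZ. Ddit3 had 78.7, 54.8, 79.7 and 39.8 CPM with bFGF in iCre, against 91.8, 87.4, 99.1 and 55.3 CPM with SS. In LacZ it had 57.0, 50.4, 59.4 and 39.9 CPM with bFGF, against 67.8, 75.4, 77.7 and 71.2 CPM with SS. It was lower with bFGF in 4 of 4 numbers of each vector, and the LacZ groups did not overlap. Its log2 fold change was -0.40 ± 0.23 in iCre (adjusted p = 0.41) and -0.50 ± 0.23 in LacZ (adjusted p = 0.27).

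Slc7a5 had 146, 83.7, 136 and 27.5 CPM with bFGF in iCre, against 79.5, 54.2, 94.3 and 24.2 CPM with SS. It was higher in 4 of 4 numbers of each vector, with log2 fold changes of 0.64 ± 0.47 in iCre and 0.50 ± 0.47 in LacZ (adjusted p = 0.56 and 0.67). Without the number 4 libraries 2 of 10 members passed in each vector, where 15.9% of 16506 genes changed in iCre and 9.92% in LacZ. Sesn2 then fell by 0.29 ± 0.07 in iCre (adjusted p = 0.012) and by 0.30 ± 0.07 in LacZ (adjusted p = 0.014), Slc7a5 rose in iCre by 0.69 ± 0.23 (adjusted p = 0.047) and Ddit4 fell in LacZ by 0.44 ± 0.12 (adjusted p = 0.029). In Ddit4 the number 4 library went the other way: LacZ had 35.04, 35.5, 32.4 and 63.1 CPM with bFGF, against 45.9, 48.0, 45.8 and 36.8 CPM with SS.

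The target lists around ATF4 were also read under bFGF. None of the 12 amino acid synthesis genes, 13 tRNA charging genes or 8 transporters passed in either vector by edgeR or DESeq2. In those 3 lists edgeR gave 0 genes at an unadjusted p under 0.05, and DESeq2 gave 1 synthesis gene and 1 transporter, both in iCre. The median log2 fold change was 0.27 in iCre and 0.18 in LacZ for the synthesis genes and 0.20 and 0.15 for the tRNA charging genes. Outside these lists Fosl1, an AP-1 subunit, changed by 2.04 in iCre and 2.07 in LacZ. Cardiomyocyte markers summed to 5.82 to 23.1 CPM with bFGF in iCre, against 22.4 to 91.4 CPM with SS, and to 11.2 to 36.9 CPM in LacZ, against 44.7 to 126.9 CPM with SS. Endothelial markers summed to 10.5 to 13.8 CPM with bFGF in iCre, against 16.8 to 23.1 CPM with SS, and to 13.05 to 18.75 CPM in LacZ, against 17.3 to 34.6 CPM with SS. The cardiomyocyte sums did not overlap in LacZ, nor the endothelial sums in iCre. With SS they were mostly Tnnt2 and Tek. The part of these sums in the results was not tested.

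**Figure D4:**
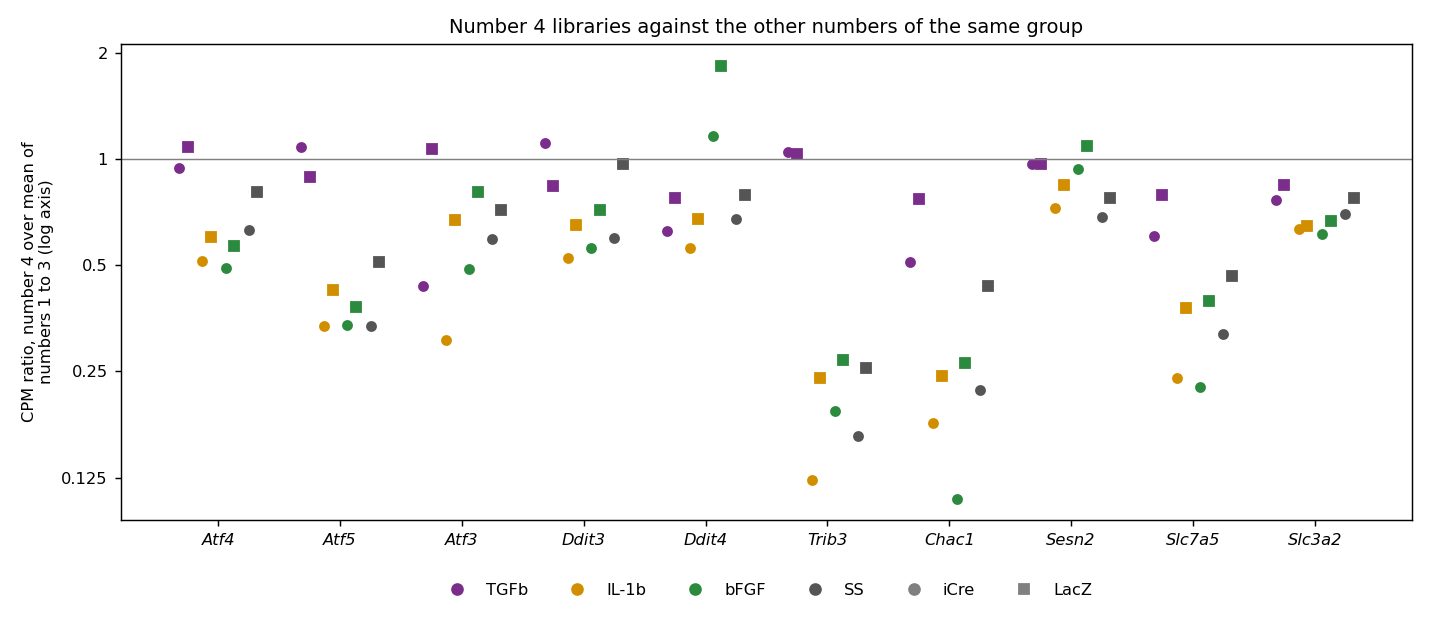
Ratio of the CPM of the number 4 library to the mean of numbers 1 to 3 of the same group, for each gene and group, on a log axis. Trib3 lies at 1.03 to 1.04 with TGFb and at 0.123 to 0.269 in the other groups, and Ddit4 with bFGF lies above 1.

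The vector comparison asks what iCre did to these genes within each condition. No member passed in TGFb, IL-1b, bFGF or SS by edgeR or DESeq2, nor by edgeR with a block. Without a block none had an unadjusted p under 0.05 there. With the library number as a block edgeR gave Atf3 under 0.05 in IL-1b. With each pair of the same condition and number as a block it gave Atf5 in SS (unadjusted p = 0.0361). In IL-1b that fit gave Sesn2, Atf5 and Atf3 (unadjusted p = 0.0418, 0.0426 and 0.0451). Without a block the share of all genes called was 0% in TGFb, 0% in IL-1b, 0% in bFGF and 0% in SS. With those pairs as blocks 46 of all genes were called in TGFb, 15 in bFGF, 14 in SS and 0 in IL-1b. With the library number as a block 5 were called in TGFb, 1 in bFGF, 0 in IL-1b and 0 in SS. Over the 4 conditions together no member passed without a block either, where 0.107% of all genes did by edgeR. At an unadjusted p under 0.05 edgeR then gave 0 members and DESeq2 gave 1, Atf3. With the library number as a block edgeR gave Atf3 as well, and with each pair of the same condition and number as a block it gave Atf5, Atf3, Sesn2 and Ddit3 (unadjusted p = 0.00164, 0.0368, 0.0449 and 0.0484). Over the 4 conditions the fit with pairs takes all pairs as separate, although each number recurs in every condition. The average log2 difference, iCre over LacZ, was -0.02 ± 0.12 for Atf4, with an interval of 2 standard errors from -0.27 to 0.23. It was 0.00 ± 0.24 for Chac1, with an interval from -0.47 to 0.47, and 0.17 ± 0.31 for Trib3, with an interval from -0.45 to 0.79. Slc7a5 was at -0.08 ± 0.24 and Slc3a2 at -0.02 ± 0.10. These intervals lie below the TGFb responses of Atf4, Chac1, Slc7a5 and Slc3a2. They come from the fit without pairs and include the spread between numbers. With each pair as a block they ran from -0.13 to 0.05 for Atf4, -0.30 to 0.11 for Chac1 and -0.09 to 0.28 for Trib3. For Slc7a5 the interval then ran from -0.33 to -0.01, and for Slc3a2 from -0.09 to 0.05. A p that misses the threshold does not show that the vectors gave the same level.

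Atf3 and Atf5 had the most uneven split of pairs. Atf3 was higher in iCre in 12 of 16 pairs, with an average difference of 0.39 ± 0.19 (adjusted p = 0.74). Its mean difference was 0.51, 0.10 and 0.89 for numbers 1, 2 and 3 and -0.32 for number 4. Atf5 was higher in iCre in 2 of 16 pairs, with an average difference of -0.15 ± 0.20 (adjusted p = 0.92). With each pair of the same condition and number as a block, Atf5 fell by 0.19 ± 0.05 (adjusted p = 0.035), the 1 member called where 5.86% of all genes were called. The 16 pairs come from 4 numbers, each seen in 4 conditions, so they are not separate observations. This fit and the counts of pairs take them as separate. By number the mean Atf5 difference was -0.07, -0.28, -0.07 and -0.35 for numbers 1 to 4. The response to a stimulus did not differ detectably between the vectors: no member passed the interaction test for TGFb, IL-1b or bFGF, and 0% of all genes did in each. The largest interaction of a member was that of Atf3 with TGFb, -0.51 ± 0.54.

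**Figure D5:**
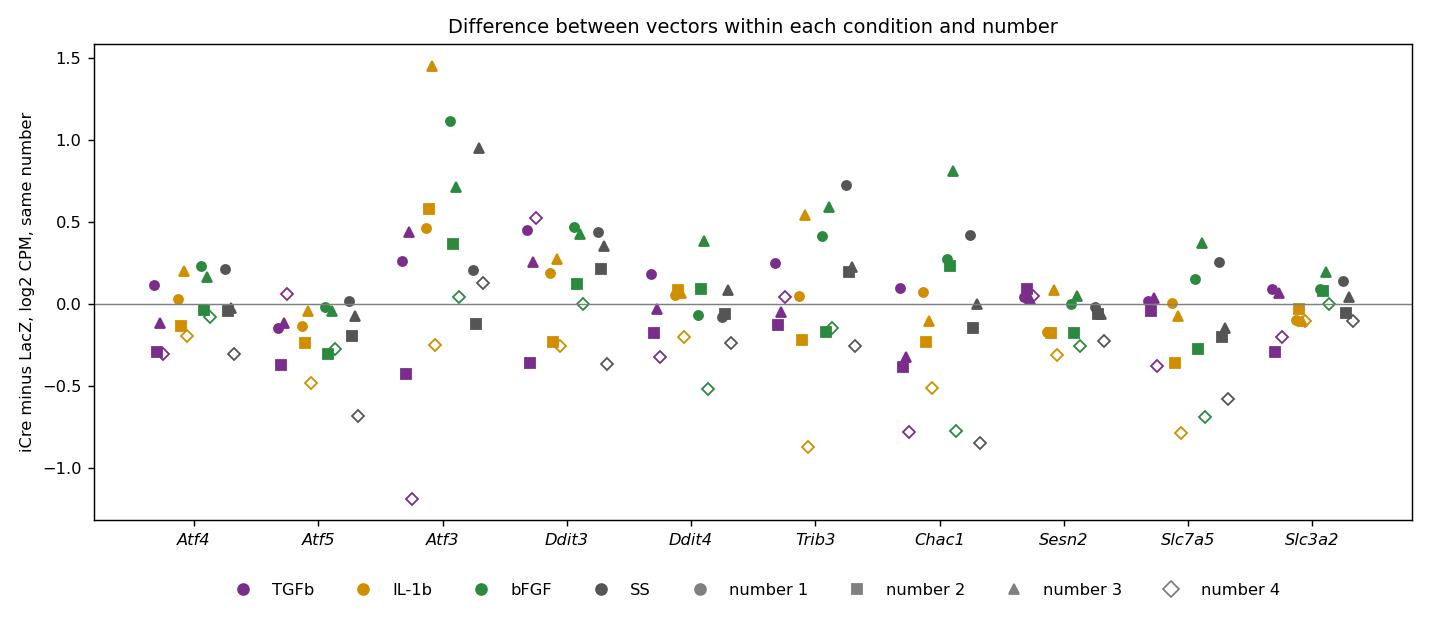
Difference in log2 CPM, iCre minus LacZ, for each gene within each condition and library number. Points of most genes lie on both sides of 0; Atf5 lies below 0 in all but 2 pairs and Atf3 above 0 in 12 of 16.

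Genes whose 8 group means followed a member most closely were named by Pearson r over those means, among 3259 genes with enough level and spread, as a description. Atf4 was followed by Nupr1 (r = 0.998), Ltbp2 and Psmb2 (both 0.997), Gars (0.997) and Tmem126a (0.996). Trib3 was followed by Eprs and Rgs19 (both 0.998), Fam98a (0.997), Nupr1 (0.996) and Mthfd1 (0.995). Ddit4, which answered IL-1b as well, was followed by Dnajb6 (0.994), Spsb1 (0.993), Ebp (0.991), Akr1b3 (0.988) and Calr (0.987). Of the 8 means, 2 come from TGFb.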

How the data were processed

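Poly(A) RNA of 32 libraries was prepared with NEBNext Ultra II, per the labels and their protocols. Raw counts per gene were deposited by the authors, and the submitters' processing notes name FastQC 0.10.1, HTSeq 0.10.0 and GRCm38; the aligner, the strand setting and the annotation used are not given in the sources used for this text. Of 55414 identifiers 52081 had a GENCODE vM21 symbol. Genes were filtered by filterByExpr, scaled by TMM and fitted in edgeR 4.0.16 (R 4.3.3) with 1 mean per group over all 32 libraries, two-sided, at an adjusted p of 0.05. CPM values use TMM-scaled library sizes, without prior count; log2 CPM of pairs and group means has a prior count of 2. DESeq2 1.42.0, other scalings, no filter, blocks, number 4 left out and each library left out were the alternatives. The test was run on simulated data first. No pair of libraries agreed within sampling noise (lowest chi-square over degrees of freedom 9.8, 496 pairs). Same-numbered libraries deviated together from their group means in 40 of 40 group pairs (r from 0.153 to 0.857), so numbers pair the libraries. The main fit does not use this pairing, and only the fits with blocks do.

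The members and lists were chosen with earlier results of these data known. Named were all 10 members, label check genes, up to 5 genes of each list with the smallest p in a LacZ stimulus contrast and 7 genes of known role, and for Atf4, Trib3 and Ddit4 the 5 most similar genes (average log2 CPM from 3, SD over group means from 0.3).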

Additional observations from a re-analysis of the deposited data

Results flagged for a closer look

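In 12 of 80 sets of member and group a library lay far from the other 3, with a gap to the nearest of them, as a share of the group's range, above Dixon's 95% critical value for 4 samples. Chance flags about 1 in 20 such sets where they are separate. Here the sets share libraries and the members vary together, so the 12 flags are not 12 separate events. In 11 of the 12 the library was number 4, and iCre IL-1b number 4 was flagged for Atf5, Trib3, Chac1, Sesn2 and Slc7a5. Atf4 was low in LacZ bFGF number 4, at 97.05 CPM. Atf5 was low in iCre IL-1b number 4 (171.3 CPM), in LacZ SS number 4 (386.1 CPM) and in iCre TGFb number 3 (645 CPM). Trib3 was low in iCre IL-1b number 4, at 5.322 CPM. Chac1 was low in number 4 of iCre IL-1b (2.506 CPM) and of LacZ IL-1b (3.605 CPM). Sesn2 was low in number 4 of iCre IL-1b (60.21 CPM) and of iCre SS (64.96 CPM). Slc7a5 was low in number 4 of iCre IL-1b (15.07 CPM) and of LacZ IL-1b (26.12 CPM). Ddit4 was high in LacZ bFGF number 4, at 63.1 CPM.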

How the results depend on the processing

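Over all alternatives no called value reversed, and 28 of 5540 values gained and 24 lost their call. A further 9 were classed as moved without gain or loss of a call, and 5479 as the same. Of the values called in neither fit, 319 of 4966 turned sign, none reported above 0.32 in size. With the replicate block, members called with IL-1b were 2 in iCre and 2 in LacZ. Without the number 4 libraries, with or without that block, they were 4 in each vector with IL-1b and 2 in each with bFGF. With each condition and number pair as a block, 1 member was called for iCre over LacZ. Leaving out single libraries gave 5 to 6 members with TGFb in each vector, 1 with IL-1b and 0 in every other comparison. Counts over all genes moved further: genes called with bFGF were 368 in iCre and 429 in LacZ, against 1916 and 2048 with the replicate block, 823 and 847 by DESeq2, 2621 and 1638 without number 4, and 190 and 212 without the filter. For iCre over LacZ on average they were 18, against 475 with the replicate block, 982 with pairs as blocks, 85 by DESeq2 and 114 without number 4. With IL-1b they were 2634 in iCre and 3216 in LacZ, against 4868 and 5418 with the replicate block. Without single libraries they were 40 (without iCre SS number 2) to 1176 (without iCre bFGF number 4) with bFGF in iCre, 73 (without LacZ SS number 2) to 936 (without LacZ SS number 3) in LacZ, and 7 (without LacZ IL-1b number 1) to 25 for iCre over LacZ. Trib3 with TGFb in iCre was at 1.61 ± 0.66 without the filter on low counts (adjusted p = 0.10), where more genes were tested. The replicate block changed no other member's call than Slc3a2 with IL-1b and Atf3 with TGFb in LacZ. Atf3 and Chac1 rest on few reads, from 38 and 58 counts in a library. Ddit3 and Atf5 overlap other genes, whose part in their counts was not tested.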
